A study of Mus musculus with 12 samples.

Results

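Chemokines are small secreted proteins that guide the movement of cells. They are grouped by the spacing of their first cysteines into CC, CXC, CX3C and C ligands, and they act through receptors coupled to G proteins, while the atypical receptors bind ligands without coupling to those proteins and take them up or hold them. Mesenchymal stem/stromal cells (MSCs) of the bone marrow are known as a source of Cxcl12, which retains blood-forming cells in the marrow. TGF-β is a cytokine that signals through Smad proteins and through MAP kinases, among them p38α, the product of Mapk14.

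The genes described here are the chemokine ligands (Ccl, Cxcl, Cx3cl, Xcl), the receptors (Ccr, Cxcr, Cx3cr) and the atypical receptors (Ackr), taken by symbol wherever a probeset of the array was annotated to 1 gene. They numbered 50 of the 17097 genes measured, namely 20 CC ligands, 12 CXC ligands, 2 C or CX3C ligands, 13 receptors and 3 atypical receptors. No filter on low values was applied, so all 50 were tested. The data are 12 arrays (Affymetrix MG-430 PM) of RNA from immortalized bone marrow MSCs of FVB/NJ background, made from Mapk14 lox/lox mice that carry an inducible Cre recombinase. The study's methods name another strain background for the mice used in its experiments, and this was not resolved here. The groups were untreated control MSCs (CTRO, labelled wildtype, 4 arrays), control MSCs with TGF-β (CTRO+TGFb, 3 arrays), untreated p38α-deleted MSCs (KO, 2 arrays) and p38α-deleted MSCs with TGF-β (KO+TGFb, 3 arrays). Per the study's methods, deletion was induced with 4-OHT and control MSCs got vehicle, so all 4 groups share the floxed alleles and the Cre. All groups were kept in 0.5% FBS, and TGF-β was given at 5 ng/mL for 20 h. The sources used here do not say whether arrays of a group came from separate cultures, so p-values measure the spread between these arrays only, and their number limits the precision.

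Arrays with the number 1, of which each group holds 1, differed from the others of their group in CTRO and KO+TGFb, with an SD of the gene-wise differences of 0.407 to 0.458 against 0.154 to 0.173 among the other arrays. In CTRO+TGFb array 4 was about as near to array 1 (0.284) as to array 3 (0.273), and KO has only 2 arrays. Of the 38 members at or below the median level of all genes, 34 were higher in the arrays numbered 1 (median log2 difference 0.16, where all genes in that range had 0.14), and so were 11 of the 12 members above it (median difference 0.23, against −0.05). The fit took arrays that share a number as related, and results that rest on the arrays numbered 1 are given without them too. Mapk14 lay between 8.95 and 9.12 in CTRO and between 9.01 and 9.03 in KO, and with TGF-β between 9.06 and 9.32 in CTRO+TGFb and between 9.27 and 9.51 in KO+TGFb (adjusted p = 0.508 in limma). The sources used here do not say whether its probeset lies in the deleted part, so it does not check the labels. Of 10 measured MSC markers 7 were above the median level, with Thy1, Eng and Mcam below it. This held for 1 of 9 leukocyte markers (Cd79a) and for none of 8 endothelial and 4 epithelial ones. The mean level of the MSC markers was 7.81 to 7.85 in CTRO, 7.95 to 8.00 in CTRO+TGFb, 7.84 to 7.87 in KO and 8.08 to 8.18 in KO+TGFb. The mean of the leukocyte markers was 3.69 to 3.87 in the arrays numbered 1 and 3.62 to 3.70 in the others, and that of the endothelial markers 3.68 to 3.84 and 3.51 to 3.60. The part of these markers in the results was not tested. In RNA from whole cultures, fewer cells of a type and less RNA per cell cannot be told apart.

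The sequences just before the start sites of Cxcl12, Ackr3 and Cx3cl1 are shown first, since these 3 genes passed the test in both TGF-β comparisons. Ackr4 passed in both too, but its stretch is not shown, so the matches below describe 3 of 4 such genes. Each is the 250 bases upstream of the start, from RefSeq (GRCm38.p6), read 5′ to 3′ on the gene's strand. Capitals mark GC boxes (GGGCGG on either strand) and the TATA box (TATAAA). The positions were chr6:117168285-117168534 for Cxcl12, chr1:90203730-90203979 for Ackr3 and chr8:94771930-94772179 for Cx3cl1, all on the plus strand.
Cxcl12: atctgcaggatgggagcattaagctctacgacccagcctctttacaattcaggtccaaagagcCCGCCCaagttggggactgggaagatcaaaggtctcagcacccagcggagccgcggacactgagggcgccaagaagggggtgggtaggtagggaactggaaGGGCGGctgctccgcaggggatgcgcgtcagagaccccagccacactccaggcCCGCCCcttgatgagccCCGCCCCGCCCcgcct
Ackr3: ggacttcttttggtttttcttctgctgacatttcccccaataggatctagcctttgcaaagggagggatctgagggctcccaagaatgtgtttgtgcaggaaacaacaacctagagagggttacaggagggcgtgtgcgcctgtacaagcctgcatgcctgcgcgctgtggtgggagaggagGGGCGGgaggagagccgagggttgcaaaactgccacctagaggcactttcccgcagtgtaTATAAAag
Cx3cl1: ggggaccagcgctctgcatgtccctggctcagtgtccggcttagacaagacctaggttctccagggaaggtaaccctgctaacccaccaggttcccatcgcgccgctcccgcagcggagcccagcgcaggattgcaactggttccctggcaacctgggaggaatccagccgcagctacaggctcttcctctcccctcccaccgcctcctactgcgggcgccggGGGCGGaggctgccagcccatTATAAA

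GC made up 64.4% of the Cxcl12 stretch, 54.0% of that of Ackr3 and 64.8% of that of Cx3cl1, against a median of 52.4% over 32851 promoters. A GC box occurred in all 3, 5 times before Cxcl12 with the last 2 sharing bases, while it occurred in 32.7% of all promoters and in 6 of the 42 promoters found for 38 of the members. The TATA letters stood 8 bases before the start of Ackr3 and 6 before that of Cx3cl1, and occurred in 12.4% of all promoters and in 10 of the 42. Neither the letters TGANTCA of an AP-1 site (6.7% of all promoters, 5 of the 42) nor the letters CAGAC of a SMAD box (42.2%, 19 of the 42) occurred in these 3 stretches on either strand. Such a match is a description of letters, not of binding.

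The kappaB consensus, named for the NF-kB factors that drive many inflammatory chemokines, occurred in 3.9% of all promoters and in 8 of the 42. Windows of 30 bases from 4 ligand genes are shown, with the consensus in capitals, because the ligands with these letters had a mean over the 12 arrays at or below the median level. For Cxcl1 that mean was just below it, and all 4 CTRO arrays lay above it. They lie at chr5:90891164-90891193 for Cxcl1, chr5:90903792-90903821 for Cxcl2 and chr1:83116676-83116705 for Ccl20, on the plus strand, and at chr5:92348973-92349002 on the minus strand for Cxcl10, where it is the nearer of 2 matches to the start.
Cxcl1: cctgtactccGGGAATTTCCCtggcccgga
Cxcl2: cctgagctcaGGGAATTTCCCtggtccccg
Ccl20: aatcaatgggGGAAAACCCCgggtgagaac
Cxcl10: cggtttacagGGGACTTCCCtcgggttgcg
Over the 12 arrays the values were 4.03 to 6.08 for Cxcl1 and 2.74 to 2.97 for Cxcl2, whose windows hold the same kappaB letters. Ccl9, a CC ligand with a mean of 4.08, also held a match, 35 bases before its start, and its window is not shown.

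Levels are deposited RMA values on a log2 scale. Probesets differ in how brightly they respond, so a level describes a gene's place on this array and not an amount of transcript. Of the 50 members, 12 (24%) had a mean over the 12 arrays above 5.11, the median of all genes. These were the CC ligands Ccl17 (6.40), Ccl5 (6.23), Ccl25 (5.84), Ccl28 (5.53), Ccl2 (5.27) and Ccl24 (5.26), the CXC ligands Cxcl12 (10.14) and Cxcl16 (5.53), the CX3C ligand Cx3cl1 (7.78), the receptors Cx3cr1 (5.88) and Ccr10 (5.71), and the atypical receptor Ackr4 (5.36). Cxcl12 lay at percentile 96.4 of all genes and Cx3cl1 at 80.2, while the other 10 lay between 51.9 and 64.5. Ccl24 was the member just above the median and Cxcl1 (5.10) the one just below it. Of the 38 members at or below the median, the receptors other than Cxcr6 ranged in mean from 2.68 (Ccr1, the lowest of all 50) to 3.93 (Ccr4), and the CC ligands from 2.86 (Ccl11) to 4.80 (Ccl21b). Ccl21b and Ccl27a have near-identical copies in the mouse genome, so their signal is uncertain.

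**Figure D1:**
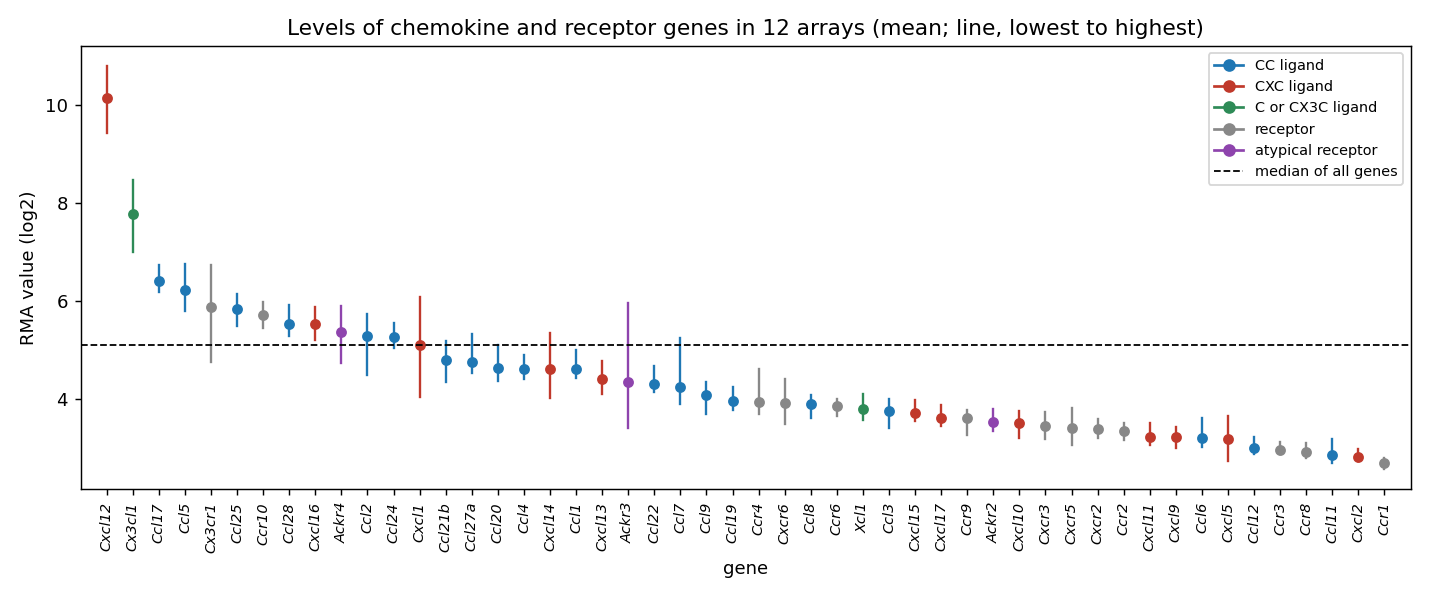
Mean RMA value (vertical axis, log2) of each of the 50 genes (horizontal axis, in order of the mean) over 12 arrays, with a line from the lowest to the highest array, color for the class and a dashed line at the median of all genes, 5.11. Cxcl12 (10.14) and Cx3cl1 (7.78) stand above the other 48, whose means are at most 6.40.

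The first question was how the genes respond to TGF-β in control MSCs. Ackr3, the atypical receptor that takes up Cxcl12, and the ligand Cx3cl1 rose, as did the receptor Cxcr6, while Cxcl12 and Ackr4 fell. These were 3 higher (6%) and 2 lower (4%) of 50 members, beside 4.02% higher and 5.36% lower among all genes tested (limma, adjusted p under 0.05), so the members' shares were near the background. The median change was 0.02 over the members and −0.01 over all genes.

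In p38α-deleted MSCs Ackr3 and Cx3cl1 again rose and Cxcl12 and Ackr4 again fell, while Cxcr6 did not pass. These were 2 higher (4%) and 2 lower (4%), beside 3.43% higher and 4.97% lower among all genes. The median change was 0.08 over the members and 0 over all genes. In all, 5 members passed in any comparison and 45 in none. The comparisons share arrays, so they are not independent of each other, and the values stand side by side below.

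Cxcl12, the ligand that holds blood-forming cells in the marrow, had RMA values of 10.24, 10.42, 10.40 and 10.48 in CTRO (arrays 1, 3, 4 and 4b) and of 9.43, 9.64 and 9.47 in CTRO+TGFb (1, 3 and 4). Its values were 10.51 and 10.80 in KO (1 and 3) and 10.09, 10.07 and 10.09 in KO+TGFb (1, 2 and 4). Every treated array lay below every untreated array, in either genotype. TGF-β lowered Cxcl12 1.83-fold in CTRO (log2 change −0.88, SE 0.07, adjusted p = 1.25e-05 in limma) and 1.46-fold in KO (−0.54, SE 0.09, adjusted p = 0.00315). Within the array numbers the change in CTRO was −0.82, −0.79 and −0.97, and the only number shared in KO gave −0.43. The 2 other Cxcl12 probesets also fell in CTRO (−0.48, adjusted p = 0.0052, and −1.0, adjusted p = 0.000573 over all annotated probesets). In KO one of them passed (−0.80, adjusted p = 0.0148) and the other did not (−0.29, adjusted p = 0.196).

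The other CXC ligands did not pass with TGF-β. Cxcl14, a CXC ligand found in many resting tissues, was chosen after its values were seen. Its change with TGF-β was 0.20 in CTRO (adjusted p = 0.627) and 0.37 in KO (adjusted p = 0.484). Cxcl1, which attracts neutrophils and was also chosen after its values were seen, read 5.12, 5.86, 6.08 and 5.85 in CTRO and 4.23, 5.58 and 5.38 in CTRO+TGFb. It read 4.49 and 5.87 in KO and 4.03, 4.32 and 4.36 in KO+TGFb. The array numbered 1 was the lowest of each group. The change with TGF-β was −0.62 in CTRO (SE 0.21, adjusted p = 0.103) and −0.92 in KO (SE 0.28, adjusted p = 0.0658), and neither passed. Without the arrays numbered 1 it passed in both (−0.45, adjusted p = 0.0313, and −1.52, adjusted p = 0.000929). That fit has a single KO array, assumed to vary like the other groups, although the 2 KO arrays read 4.49 and 5.87. Cxcl16, a membrane-bound ligand whose receptor is Cxcr6, changed by −0.21 in CTRO (adjusted p = 0.432) and by 0.09 in KO (adjusted p = 0.844).

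Cx3cl1 (fractalkine), which exists as a membrane-bound adhesion molecule and as a shed attractant, had values of 8.02, 7.39, 7.20 and 7.07 in CTRO and of 8.46, 7.76 and 7.85 in CTRO+TGFb. It had 7.81 and 7.0 in KO and 8.47, 8.07 and 8.27 in KO+TGFb. The groups overlapped in CTRO, where the untreated array numbered 1 lay above treated arrays 3 and 4, and did not overlap in KO. TGF-β raised it 1.48-fold in CTRO (0.56, SE 0.15, adjusted p = 0.0397) and 1.90-fold in KO (0.92, SE 0.20, adjusted p = 0.0135). Within numbers 1, 3 and 4 the rise in CTRO was 0.44, 0.37 and 0.72, and within number 1 the rise in KO was 0.66. A second, dimmer Cx3cl1 probeset rose as well (0.71, adjusted p = 0.00817, and 1.00, adjusted p = 0.00561). The call in CTRO was lost in 11 of 22 alternatives, among them the fit without the block on array number (0.60, adjusted p = 0.375).

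Cx3cr1, the receptor of Cx3cl1, read 6.39, 5.18, 5.41 and 5.66 in CTRO, 6.43, 5.58 and 5.92 in CTRO+TGFb, 6.20 and 4.76 in KO, and 6.73, 5.96 and 6.29 in KO+TGFb. The array numbered 1 was the highest in each group, as for 24.1% of all genes, and the groups overlapped. The change with TGF-β was 0.30 in CTRO (SE 0.20, adjusted p = 0.457) and 0.80 in KO (SE 0.26, adjusted p = 0.0853), and neither passed. Without the arrays numbered 1, with a single KO array left that is assumed to vary like the other groups, the changes were 0.35 (adjusted p = 0.256) and 1.31 (adjusted p = 0.0097), so that the one in KO passed. A second Cx3cr1 probeset, with a mean of 3.45, gave −0.07 and 0.07.

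Ackr3, which binds Cxcl12 without coupling to G proteins, was among the members at or below the median level, with a mean of 4.35, but showed the largest rise of the 50 with TGF-β. It read 3.67, 3.86, 3.50 and 3.52 in CTRO and 4.51, 5.23 and 4.89 in CTRO+TGFb. It read 3.40 and 3.70 in KO and 4.83, 5.95 and 5.09 in KO+TGFb. Every treated array lay above every untreated array. The rise was 2.34-fold in CTRO (1.23, SE 0.16, adjusted p = 0.000513) and 3.25-fold in KO (1.70, SE 0.21, adjusted p = 0.000451). Within numbers 1, 3 and 4 it was 0.84, 1.37 and 1.38 in CTRO, and 1.43 within number 1 in KO. Its probeset is of the s_at type, which can match more than 1 transcript.

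Ackr4, which binds and removes CC ligands such as Ccl19 and Ccl25, read 5.53, 5.50, 5.30 and 5.45 in CTRO and 5.14, 5.38 and 4.72 in CTRO+TGFb. It read 5.90 and 5.81 in KO and 5.15, 5.15 and 5.24 in KO+TGFb. Treated array 3 of CTRO lay above untreated array 4, so the groups overlapped there, while those of KO did not. It fell by 0.39 in CTRO (SE 0.11, adjusted p = 0.0472) and by 0.58 in KO (SE 0.14, adjusted p = 0.0267). The call in CTRO was lost in 17 of 22 alternatives and that in KO in 8 of 22. With CTRO+TGFb array 4 left out the change in CTRO was −0.20 (adjusted p = 0.295). Without the arrays numbered 1 the changes were −0.37 in CTRO and −0.55 in KO, with a single KO array left, and neither call held.

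Cxcr6, a receptor found mainly on lymphocytes, lay low on the scale. It read 3.57, 3.48, 3.83 and 3.81 in CTRO, 4.40, 4.06 and 3.92 in CTRO+TGFb, 3.92 and 3.75 in KO, and 4.24, 3.95 and 4.03 in KO+TGFb. In CTRO treated arrays lay above untreated ones, by as little as 0.1 within number 4 and by 0.83 within number 1. The rise was 0.45 in CTRO (SE 0.11, adjusted p = 0.025), and 0.22 in KO did not pass (SE 0.15, adjusted p = 0.478). The difference between these 2 responses was −0.23 (SE 0.19, adjusted p = 0.924), so they were not shown to differ. Without the arrays numbered 1 the change in CTRO was 0.29 (adjusted p = 0.204). Its second probeset gave 0.16 in CTRO (adjusted p = 0.31).

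**Figure D2:**
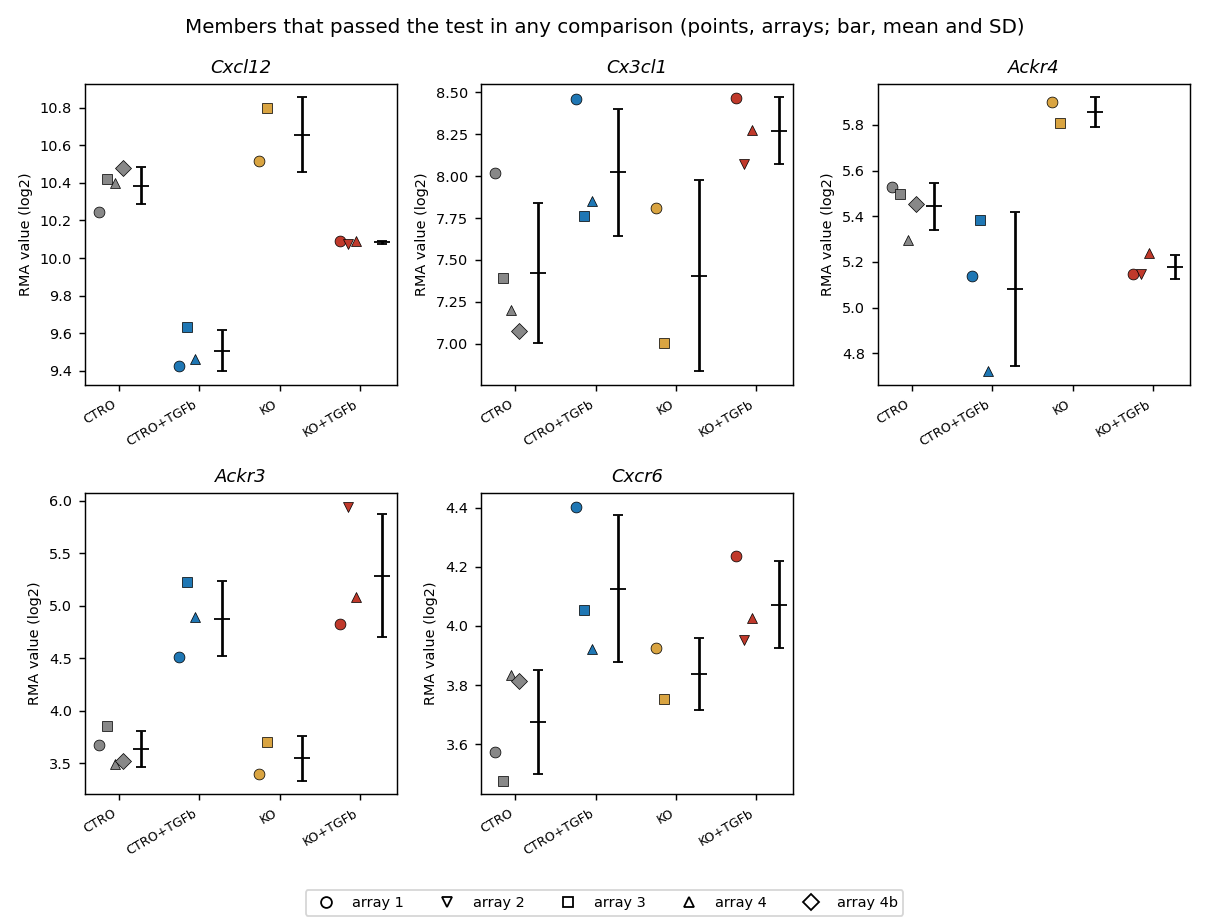
RMA values (vertical axes, log2) of the 5 genes that passed the test in any comparison, by group (horizontal axes), with 1 point per array, shape for the array's number, and a bar for the mean and SD. Cxcl12 is lower and Ackr3 higher in every treated array, while Cx3cl1 and Ackr4 overlap between CTRO and CTRO+TGFb.

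The CC ligands above the median did not pass with TGF-β in either genotype. Ccl2 (MCP-1), which attracts monocytes, came nearest, with values of 5.66, 5.50, 5.09 and 4.87 in CTRO, 5.66, 5.72 and 5.49 in CTRO+TGFb, 4.94 and 4.48 in KO, and 5.23, 5.16 and 5.48 in KO+TGFb. Its change was 0.31 in CTRO (SE 0.16, adjusted p = 0.296) and 0.69 in KO (SE 0.21, adjusted p = 0.0618). Ccl5 (RANTES), which attracts T cells and monocytes, changed by −0.22 in CTRO (adjusted p = 0.492) and by −0.01 in KO (adjusted p = 0.988).

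Ccl17, a ligand of the receptor Ccr4, read 6.42, 6.40, 6.40 and 6.30 in CTRO, 6.49, 6.42 and 6.38 in CTRO+TGFb, 6.53 and 6.19 in KO, and 6.72, 6.36 and 6.18 in KO+TGFb. Ccl25, which attracts thymocytes and gut-homing T cells, read 6.01, 5.97, 5.48 and 5.87 in CTRO, 5.90, 5.98 and 5.77 in CTRO+TGFb, 5.84 and 5.54 in KO, and 5.74, 6.14 and 5.83 in KO+TGFb. The groups of both genes overlapped, and their changes with TGF-β were between 0.03 and 0.22 with adjusted p of 0.524 or more. Ccl24 (eotaxin-2), which attracts eosinophils, read 5.33, 5.15, 5.19 and 5.20 in CTRO, 5.54, 5.12 and 5.15 in CTRO+TGFb, 5.33 and 5.03 in KO, and 5.51, 5.22 and 5.32 in KO+TGFb. In every group its highest array was the one numbered 1, as for 15 members and 24.1% of all genes.

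Ccl28, an epithelial chemokine, read 5.51, 5.40, 5.66 and 5.63 in CTRO, 5.70, 5.28 and 5.56 in CTRO+TGFb, 5.55 and 5.28 in KO, and 5.91, 5.29 and 5.66 in KO+TGFb. Its receptor Ccr10 read 5.87, 5.76, 5.89 and 5.66 in CTRO, 5.96, 5.46 and 5.6 in CTRO+TGFb, 5.82 and 5.44 in KO, and 5.98, 5.61 and 5.51 in KO+TGFb. Groups of either gene overlapped, and no change with TGF-β passed (adjusted p of 0.472 or more). Of 3 Ccl28 probesets the 2 others had means of 3.82 and 2.69, below the median of all genes.

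**Figure D3:**
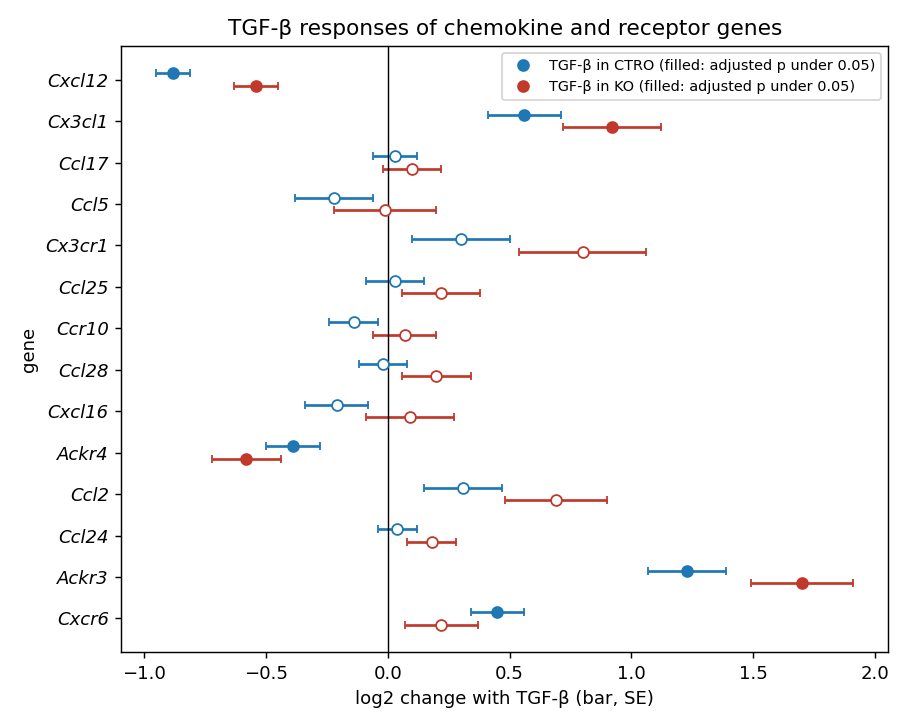
Log2 change with TGF-β (horizontal axis; bar, SE) in CTRO and KO for the 12 genes above the median level and for Ackr3 and Cxcr6 (vertical axis), filled where the adjusted p is under 0.05. Ackr3 changed most, by 1.23 and 1.70, and Cxcl12 fell by 0.88 and 0.54.

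The second question was how p38α deletion alters these genes in TGF-β-treated MSCs. Cxcl12 was higher in KO+TGFb, the 1 member that passed (2% higher and 0% lower), beside 0.368% higher and 0.0819% lower among all genes tested. The KO+TGFb values of 10.09, 10.07 and 10.09 all lay above the CTRO+TGFb values of 9.43, 9.64 and 9.47. The level was 1.52-fold higher (0.61, SE 0.08, adjusted p = 0.00918), with 0.66 within number 1 and 0.63 within number 4. The call was lost in 7 of 22 alternatives, with adjusted p between 0.00468 and 0.591 over all of them. These included the fit without the block (0.58, adjusted p = 0.0989), the fit without the arrays numbered 1 (0.54, adjusted p = 0.0743) and the most variable Cxcl12 probeset in place of the brightest (0.33, adjusted p = 0.591). It was also lost on leaving out array 1 (adjusted p = 0.0577) or 4 (0.0662) of CTRO+TGFb or array 4 of KO+TGFb (0.0594).

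Ccl5 had values of 6.62, 6.66 and 6.46 in KO+TGFb and of 5.78, 5.84 and 5.98 in CTRO+TGFb. Ccl5 differed by 0.65 (SE 0.18), which did not pass (adjusted p = 0.204). The value in CTRO was 6.0, 5.96 and 5.87 in arrays 1, 3 and 4 and 6.61 in array 4b, and in KO it was 6.75 and 6.24. With array 4b left out, which alters the spread shared by all groups, Ccl5 passed between TGF-β-treated genotypes (0.67, SE 0.12, adjusted p = 0.0375).

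Cxcl14 had values of 4.25, 4.47 and 4.39 in KO+TGFb and of 4.85, 5.19 and 4.97 in CTRO+TGFb. Cxcl14 differed by −0.62 (SE 0.22), which did not pass (adjusted p = 0.359). It read 5.33, 4.92, 4.63 and 4.15 in CTRO, with array 4b lowest, and 4.19 and 4.01 in KO. Its second probeset gave −0.22 with TGF-β (adjusted p = 0.917).

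Cxcl16 read 5.61, 5.82 and 5.61 in KO+TGFb and 5.24, 5.41 and 5.36 in CTRO+TGFb, a difference of 0.30 that did not pass (adjusted p = 0.662). Cxcl1 differed by −0.72 (SE 0.24, adjusted p = 0.336), and the array numbered 1 of CTRO+TGFb, at 4.23, lay among the KO+TGFb values. Without the arrays numbered 1 Cxcl1 differed by −1.14. This value sets CTRO+TGFb arrays 3 and 4 against KO+TGFb arrays 2 and 4, in a fit that holds a single KO array. Cxcl1 was chosen after its values were seen, so no conclusion is drawn from the reduced fit. Cx3cl1 (0.22, adjusted p = 0.853), Ackr3 (0.34, adjusted p = 0.697) and Ackr4 (0.14, adjusted p = 0.897) did not pass. Neither did Ccl2 (−0.29, adjusted p = 0.759 in limma), whose difference within number 4 was −0.01.

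**Figure D4:**
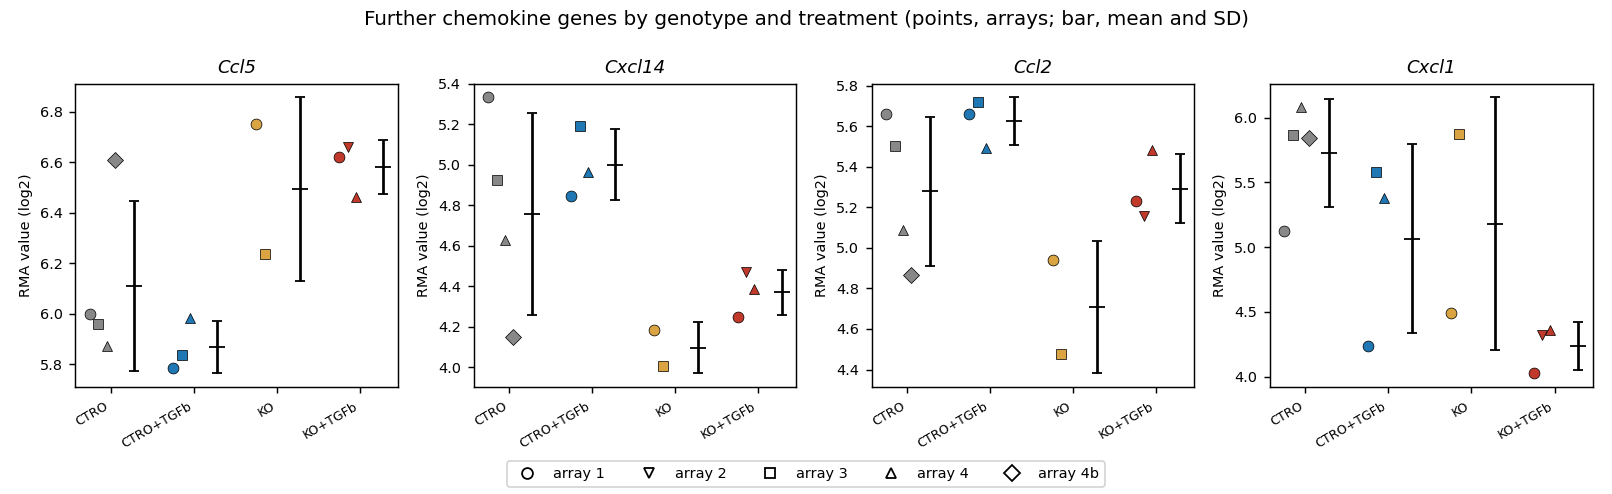
RMA values (vertical axes, log2) of Ccl5, Cxcl14, Ccl2 and Cxcl1 by group (horizontal axes), with 1 point per array, shape for the array's number, and a bar for the mean and SD. With TGF-β, KO differed from CTRO by 0.65 for Ccl5, −0.62 for Cxcl14, −0.29 for Ccl2 and −0.72 for Cxcl1. Within number 4 the difference for Ccl2 was −0.01. None of these differences passed with all arrays fitted. Array 4b of CTRO reads 6.61 for Ccl5 and 4.15 for Cxcl14.

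In untreated MSCs no member passed between KO and CTRO in limma, beside 0% of all genes tested, with 2 KO arrays to set against 4. At an unadjusted p under 0.05 there were 7 members of 50, beside 4.92% of all genes. Cxcl12 was higher by 0.27 (SE 0.08, unadjusted p = 0.00669, adjusted p = 0.982) and Ackr4 by 0.33 (SE 0.13, adjusted p = 0.982). Ccl2 differed by −0.67 (SE 0.19) and Ccl5 by 0.44 (SE 0.19), with overlapping groups. Cxcl14 differed by −0.79 (SE 0.23). Array 4b lay between the 2 KO values for Ccl2, Ccl5 and Cxcl14, unlike the other CTRO arrays. With it left out the differences were −0.75 for Ccl2 (adjusted p = 0.349), 0.55 for Ccl5 (adjusted p = 0.36) and −0.90 for Cxcl14 (adjusted p = 0.231), and none passed. Without the arrays numbered 1, which leaves 1 KO array, the difference was 0.12 for Ccl5 (adjusted p = 0.92), −0.72 for Ccl2 (adjusted p = 0.457) and −0.62 for Cxcl14 (adjusted p = 0.491).

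The response to TGF-β itself was compared between genotypes with an interaction term. No member passed, beside 0% of all genes tested, and 2 members against 5.38% of all genes had an unadjusted p under 0.05. The fall of Cxcl12 was smaller in KO by 0.33 (SE 0.12, unadjusted p = 0.0155, adjusted p = 0.848). The difference of the responses was 0.48 for Ackr3 (SE 0.28, adjusted p = 0.916) and 0.36 for Cx3cl1 (SE 0.26, adjusted p = 0.922). Without the arrays numbered 1 these differences were 0.18 for Cxcl12, 0.45 for Ackr3 and 0.61 for Cx3cl1. The largest of the members were then −1.07 for Cxcl1 and 0.96 for Cx3cr1, against −0.30 and 0.50 with all arrays. The values without those arrays rest on a single KO array.

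Among genes that act with the chemokines, lists written from general knowledge gave the following with TGF-β, to be read beside the 4.02% higher and 5.36% lower of all genes in CTRO and the 3.43% and 4.97% in KO. Of 41 measured genes of chemokine receptor signalling, 3 rose, 2 fell and 36 did not pass in CTRO (median change 0.04, against −0.01 for all genes), and 6 rose, 2 fell and 33 did not pass in KO (0.07, against 0). Rgs4, which speeds the turning off of G proteins, rose by 1.51 in CTRO (adjusted p = 8.45e-06) and 2.28 in KO (adjusted p = 3.44e-06). Elmo1, which with Dock proteins activates Rac in migrating cells, fell by 1.37 and 1.38 (adjusted p = 1.27e-06 and 1.13e-05). Tiam1, another Rac activator, rose by 1.08 and 1.40. Gnb4, a G protein beta subunit, was the 1 gene of this list that passed between TGF-β-treated genotypes, higher in KO by 1.00 (SE 0.10, adjusted p = 0.00273). Among all genes 0.368% were higher and 0.0819% lower in that comparison.

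Of 46 genes of NF-kB signalling and inducers of chemokine genes, 4 rose, 2 fell and 40 did not pass in CTRO (median 0.06), and 5 rose, 3 fell and 38 did not pass in KO (median 0.03). Lif, a cytokine of the IL-6 family, rose by 1.28 (adjusted p = 4.36e-05) and 1.66 (adjusted p = 5.07e-05). Tnfaip3 (A20), which limits NF-kB signalling, rose by 0.70 and 0.55, and Irf1, an interferon response factor, fell by 0.49 and 0.60. None of this list passed between genotypes with TGF-β, beside 0.368% higher and 0.0819% lower of all genes. Without TGF-β none passed either, beside 0% of all genes.

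Of 24 enzymes that process chemokines and their inhibitors, 3 rose, 1 fell and 20 did not pass in CTRO (median 0.01), and 2 rose, 1 fell and 21 did not pass in KO (median −0.04). Mmp13, a collagenase, fell by 0.91 (adjusted p = 0.0148) and 1.74 (adjusted p = 0.00176). Timp3 and Timp1, inhibitors of such proteases, rose by 0.92 and 0.75 in CTRO and by 0.75 and 0.72 in KO, and Anpep, an aminopeptidase that trims chemokines, rose by 1.13 in CTRO (adjusted p = 0.000675). Of 13 relatives of chemokines and their receptors outside the symbol families, none rose, 2 fell and 11 did not pass in either genotype (median −0.05 in CTRO and −0.01 in KO). Those that fell were Cmtm4 (−1.02 and −0.94) and Cmtm3 (−0.71 and −0.86), membrane proteins of the CKLF-like family. No gene of these last 2 lists passed between genotypes. Of all genes 0.368% were higher and 0.0819% lower with TGF-β, and 0% passed without it.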

How the data were processed

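The deposited values are log2 RMA values, 1 per probeset, that the authors made with affy and affyPLM (versions not given in the sources used here) from cDNA amplified from total RNA. They were used without further scaling. No measure of signal over background was used here. Of 45101 probesets, 28898 have 1 gene symbol in GEO's platform annotation, 551 several and 15652 are unnamed here. Where a gene had several, the one with the highest mean over the 12 arrays stood for it, giving 17097 genes. The group means were compared by limma 3.58.1 (R 4.3.3) in 1 fit of all arrays, with the array number (4b counted as 4) as a random block (estimated correlation 0.49), in place of the scanning batch that the study's methods adjust for. What a number stands for is not given in the sources used here. Tests were two-sided, and p-values were adjusted by Benjamini-Hochberg over the 17097 genes, with calls under 0.05, and the fit was tested on simulated data. The simulated arrays had number effects of the same spread for every number, so that run could not show a misfit of the block. The text gives in full the members above the median level of all genes and those called in any of 5 comparisons, and from each list at most the 4 largest changes among the called genes. The members and lists were chosen with earlier results of these data known. Alternatives were the block, the probeset, scaling, filter, moderation, arrays fitted and each array left out. The name of 1 allele is not reported here.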

Additional observations from a re-analysis of the deposited data

Results flagged for a closer look

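Cxcl16 was picked out because its TGF-β-treated arrays lay on opposite sides of the untreated mean in the 2 genotypes, but opposite responses were not shown. All 3 CTRO+TGFb arrays (5.24, 5.41 and 5.36) lay below the CTRO mean of 5.53, and all 3 KO+TGFb arrays (5.61, 5.82 and 5.61) lay above the KO mean of 5.58. The difference of the responses was 0.31 (SE 0.23) and did not pass in the interaction test of limma (adjusted p = 0.922), and neither did the change in CTRO (−0.21, adjusted p = 0.432) or in KO (0.09, adjusted p = 0.844). Within array numbers 1, 3 and 4 the change in CTRO was −0.63, −0.15 and 0.01, and within number 1, the only number shared in KO, it was −0.22, the same direction as in CTRO. Of 14 named members tested in CTRO, the only group with 4 arrays, 0 had an array far from the others by Dixon's criterion. With only 4 values this criterion has little power, so it does not show that no array stood apart. For Ccl5, array 4b read 6.61 against 6.0, 5.96 and 5.87 in the other CTRO arrays and was not flagged. Leaving out that array changed the Ccl5 call between TGF-β-treated genotypes, as given above.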

How the results depend on the processing

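No direction of a called member was reversed in any alternative run. With TGF-β in CTRO, 5 members passed. There were 2 without the replicate block on array number or with only the groups of the comparison fitted (Ackr3 and Cxcl12 in both), and 3 with only genes above the median level tested, with the arrays quantile-normalized again or with array 4b as a number of its own. Leaving out single arrays gave 2 to 5, with 2 on leaving out CTRO+TGFb 1 or CTRO 3. In KO 4 passed, with 3 to 5 on leaving out single arrays. With only its groups fitted there were 0, and there the block could not be estimated and was left out. Between TGF-β-treated genotypes 1 passed (Cxcl12), 0 without the replicate block, with the block as a fixed term or with the most variable probeset of each gene, and 3 with only the treated groups fitted (Ccl5, Cxcl12 and Cxcl14). Leaving out single arrays gave 0 to 2, with 2 (Ccl5 and Cxcl12) without CTRO 4b. The causes of these shifts were not tested. For most of these runs the share of all genes called is not given here. Shifts in the members thus cannot be told apart from shifts over all genes. In the untreated and interaction comparisons 0 members passed throughout, 0 to 0 on leaving out single arrays. The number above the median level was 12 to 13, with Cxcl1 as the added gene.

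Ackr3 with TGF-β in CTRO and Cxcl12 with TGF-β in CTRO kept their calls in all 21 and 22 alternatives (1.14 to 1.42 and −1.0 to −0.84). Over all genes, the block moved the calls with TGF-β from 602 to 1604 in CTRO and from 624 to 1436 in KO, and those between treated genotypes from 14 to 77. Deviations from the group means correlated at 0.64 to 0.85 between arrays numbered 1 and 0.68 to 0.78 between those numbered 3, but at 0.02 to 0.31 between those numbered 4. Each group mean includes the array itself, so in KO, with arrays 1 and 3 only, the deviation of array 3 mirrors that of array 1. The values for number 3 thus cannot show a pairing apart from the arrays numbered 1. The estimated correlation was 0.49 with all arrays and 0.11 without those numbered 1. Pairing by number was not shown for all numbers. The deposited values hold no signal over background, and differences among members low on the scale may be limited by it.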
